A study of Mus musculus with 22 samples.

Results

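Mouse embryonic germ (EG) cell lines were compared with mouse embryonic stem (ES) cell lines in serum culture, which sets germ cell origin against embryo origin in 1 medium. The comparison holds 9 of the 22 samples of the series, chosen by their titles: 4 EG lines and 5 ES lines grown in medium with serum. RNA of each sample was hybridised to 1 Affymetrix gene array, and levels are given on the log2 scale, on which a difference of 1 is a doubling. All 19938 genes with a probe set of their own were tested, with the probe set of the highest mean over all arrays standing for a gene.

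The EG lines were derived from mouse embryos at E8.5, in DMEM-F12 with 15% fetal calf serum (FCS) and the cytokine LIF on a feeder layer of mouse embryonic fibroblasts. The 5 ES samples were cultured in the same serum medium on feeders. ES lines had been derived in serum or in 2i and were also switched between them once established, so an ES sample in serum may hold a line derived in either medium. All samples share the strain label 129SvEv x Oct4-delta-PE-GFP, a transgenic mixed background, and the series describes the embryos as genetically identical. Of the EG lines 1 is labelled female and 3 male, and of the ES lines 2 are female and 3 male. The levels of the Y-linked gene Eif2s3y matched every sex label. All 4 EG samples carry the batch label 1, as do ES lines 1 and 2, while ES lines 3, 4 and 5 carry the label 2, with no statement of what the batch was. Batch 2 thus holds no EG sample. The cell type field reads EGCs for all 22 samples, ES samples included, so origin was taken from titles and source names. The other 13 samples were in 2i, a serum-free medium with a MEK inhibitor, a GSK3 inhibitor and LIF, on laminin: 4 EG lines derived in it, 4 EG lines moved to it after 2 days in serum (2is) and 5 ES samples. They enter the fitted model, and the first and last of these groups give the 2i values. ES samples of equal number in serum and in 2i carry the same sex and batch labels, and the labels do not say whether they are 1 line in both media. They do not say either whether the samples of a group came from separate cultures or embryos, so p-values measure the spread between samples. Samples of a shared source would make that spread too small.

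EG cells arise when primordial germ cells, the embryonic precursors of sperm and eggs, are placed in culture and return to a pluripotent state, while ES cells come from the epiblast of the blastocyst. Primordial germ cells strip most DNA methylation from their genome, including the parental marks that silence one copy of each imprinted gene. Serum with LIF keeps both kinds of cell in a mixed state, in which differentiation signals through ERK run alongside the network built on Pou5f1, Sox2 and Nanog. Feeder cells are fibroblasts and add their own RNA to such samples.

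Few genes told the EG and ES lines apart in serum. Of 19938 genes, 2 were called (0.01%), both lower in the EG lines: Nod1, an intracellular sensor of bacterial cell wall peptides, and Gbp2b, an interferon-inducible GTPase of the guanylate-binding family. No gene was called higher in the EG lines. A call is a Benjamini-Hochberg adjusted p under 0.05 over all genes in a limma model with group, labelled batch and labelled sex, fitted to all 22 samples. At an unadjusted p under 0.05 the model held 979 genes (4.91%), of which 510 were higher (2.56%) and 469 lower (2.35%) in the EG lines. The levels of the 2 origins did not overlap for 552 genes (2.77%), 299 with all EG lines above (1.5%) and 253 with all EG lines below (1.27%) the ES lines. The third smallest adjusted p was 0.115.

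The precision allows a statement of what was not seen. The median difference in size was 0.07 on the log2 scale, and the 99th percentile was 0.42. For 19729 genes (98.95%) the 95% interval of the difference lay wholly within a 2-fold change, and for 18518 genes (92.9%) within a 1.5-fold change. Among the 15213 genes with a mean above background, 15008 (98.7%) kept within 2-fold. Background is taken as 4.88, the highest level of Eif2s3y in a female sample, where the gene is not encoded. The fitted difference reached 2-fold for 10 genes, 4 with the EG lines higher and 6 with the EG lines lower, and of these only Nod1 was called. The 4 were Peg10 (1.33), Cubn (1.33), Srgn (1.28) and Lefty1 (1.07), and the 6 were Kcnma1 (-2.31), Nod1 (-2.15), Grb10 (-1.62), Fndc3c1 (-1.21), Usp26 (-1.10) and the predicted gene Gm5662 (-1.09).

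**Figure D1:**
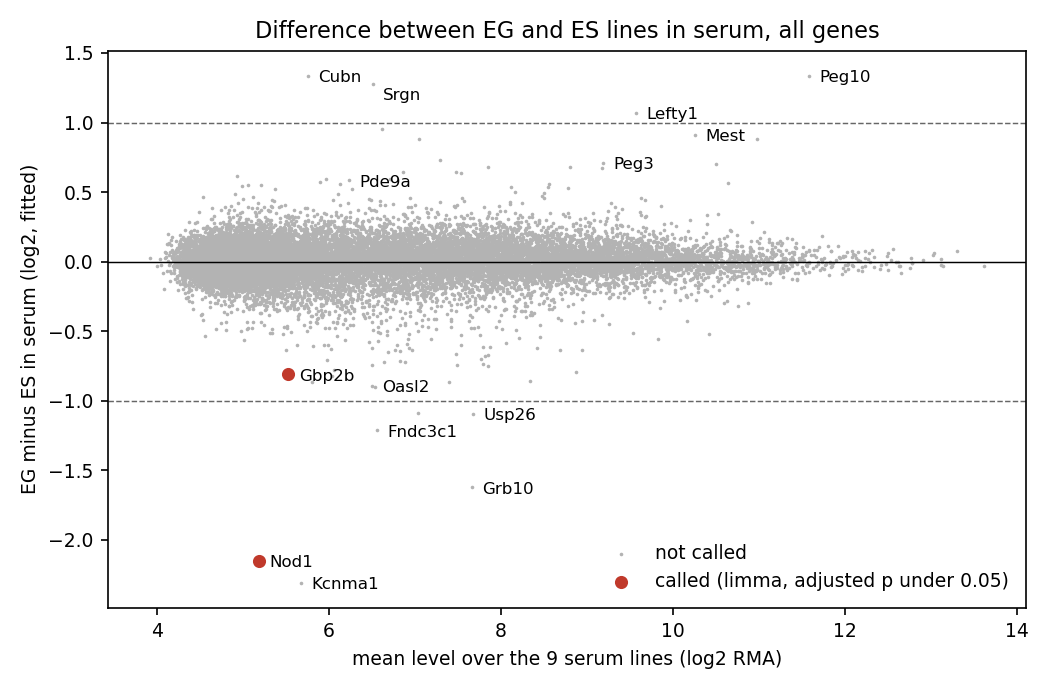
Fitted EG minus ES difference in serum (log2, vertical axis) against the mean level over the 9 serum lines (log2, horizontal axis), 1 point per gene for 19938 genes, with dashed lines at a 2-fold change. Nod1 and Gbp2b, in red, are the 2 called genes, while Kcnma1, Grb10 and Peg10 lie past the 2-fold lines without a call.

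The promoters of the 2 called genes are shown because these genes carry the calls. Each sequence is 300 bases of the RefSeq annotation on GRCm38.p6, 250 before and 50 after a transcript start, read 5′ to 3′ on the gene's strand. The Nod1 window is chr6:54972563-54972862 on the minus strand, with CG pairs in capitals. The Gbp2b window is chr3:142594597-142594896 on the plus strand, with capitals on a match to TTTCNNTTTC, the core of the element that interferon-stimulated factors bind.
Nod1: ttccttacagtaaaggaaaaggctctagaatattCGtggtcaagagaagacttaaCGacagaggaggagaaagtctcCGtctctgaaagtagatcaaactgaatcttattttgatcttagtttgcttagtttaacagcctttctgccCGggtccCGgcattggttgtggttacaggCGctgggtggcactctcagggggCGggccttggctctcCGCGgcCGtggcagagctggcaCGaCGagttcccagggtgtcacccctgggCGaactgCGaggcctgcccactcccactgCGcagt
Gbp2b: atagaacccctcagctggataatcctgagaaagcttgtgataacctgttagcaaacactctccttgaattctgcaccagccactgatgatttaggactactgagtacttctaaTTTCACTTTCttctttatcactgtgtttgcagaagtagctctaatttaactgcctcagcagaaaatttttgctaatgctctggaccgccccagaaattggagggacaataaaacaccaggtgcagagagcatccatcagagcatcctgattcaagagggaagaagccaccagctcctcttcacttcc
The Nod1 window holds 15 CG pairs and that of Gbp2b 1, against a median of 7 and quartiles of 3 and 20 over 32851 windows of all genes. A second Nod1 window, from another annotated start, holds 6. The capitals in the Gbp2b window begin 137 bases before the start. That motif, searched on both strands (TTTCNNTTTC and its reverse complement GAAANNGAAA), is found in 3.44% of all windows and in neither Nod1 window. A further interferon-related motif, GAS, was also searched and is found in 8.3% of all windows. It had 0 matches in the Gbp2b window and 1 in the second Nod1 window. These are descriptions of the reference sequence; no methylation or binding was measured.

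Nod1 was the clearest difference. Its levels in EG lines 1 to 4 were 4.46, 4.57, 4.39 and 4.13, all under the background level of 4.88. Its levels in ES lines 1 to 5 were 6.21, 6.74, 5.47, 5.35 and 5.41. The groups did not overlap, and ES lines 1 and 2, of batch 1, lay above ES lines 3, 4 and 5, of batch 2. The fitted difference was -2.15 ± 0.19 (SE; EG n = 4, ES n = 5), a 4.45-fold lower level in the EG lines with a 95% interval of -2.55 to -1.76, and the limma adjusted p was 1.1e-05. The EG levels cannot be told from background, so the fold may be understated. Within batch 1 the difference was -2.04 (adjusted p = 0.00106). Without the batch term it was -1.43 and was not called (adjusted p = 0.16).

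The gap was there in 2i too. Nod1 lay between 4.37 and 4.74 in the EG 2i lines and between 5.33 and 7.41 in the ES 2i lines, and in the 4 EG lines moved to 2i after 2 days in serum it lay between 4.38 and 4.90. The fitted difference in 2i was -2.47 ± 0.19 (SE), and it was called. The serum difference minus the 2i difference was 0.32 ± 0.23 (SE; limma adjusted p = 0.556). This misses the threshold, which does not show that the differences are equal.

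Its neighbours on chromosome 6 mostly did not share the gap. Of the 12 nearest measured genes, 6 on each side, 0 were called. Ggct, which encodes gamma-glutamylcyclotransferase of glutathione breakdown and is the next gene, had levels of 6.72, 6.39, 6.32 and 6.18 in the EG lines. In the ES lines it had 6.98, 7.26, 6.63, 6.79 and 6.91, so EG line 1 lay above ES line 3 and the groups overlapped there. The difference was -0.65 ± 0.12 (SE; limma adjusted p = 0.168), close to the called 2i value of -0.66. The other 11 neighbours lay between -0.15 and 0.17.

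Gbp2b had levels of 5.29, 5.23, 4.94 and 4.78 in EG lines 1 to 4 and of 5.80, 5.99, 6.06, 5.70 and 5.97 in ES lines 1 to 5. The groups did not overlap, the lowest ES line at 5.70 lying above the highest EG line at 5.29. The difference was -0.81 ± 0.11 (SE), or 1.76-fold lower in the EG lines, with a 95% interval of -1.04 to -0.59 and a limma adjusted p of 0.0037. In 2i the gene was under background in both origins, between 4.63 and 4.73 in EG lines and between 4.58 and 4.77 in ES lines. The origin difference in serum differed from that in 2i by -0.81 ± 0.13 (SE; adjusted p = 0.00823). The call ended within batch 1 (-0.84, adjusted p = 0.083), in male samples alone (-0.96, adjusted p = 0.111), with only the compared groups in the fit (-0.80, adjusted p = 0.498) and without ES line 2 (-0.73, adjusted p = 0.0578), in each case with a difference of similar size.

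**Figure D2:**
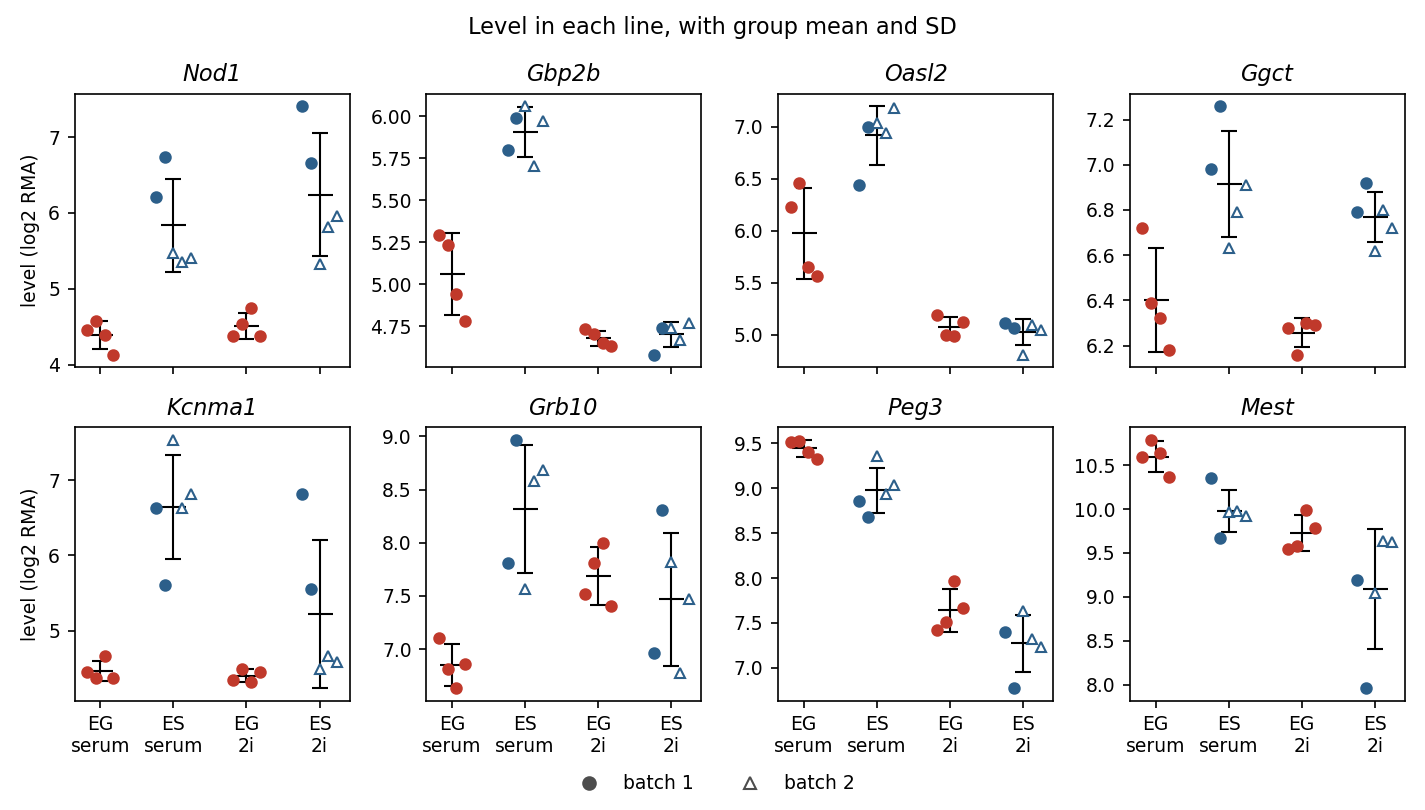
Level of 8 genes (log2 RMA, vertical axis) in every EG and ES line in serum and in 2i, with the group mean and SD (EG n = 4, ES n = 5) and the batch label given by the symbol. Nod1 lies lower in EG lines in both media, as does Ggct apart from an overlap in serum. For Gbp2b the origins lie apart in serum and together in 2i. For Oasl2 they lie together in 2i and mostly apart in serum, where EG line 2 and ES line 1 overlap.

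Gbp2b sits in a cluster of close paralogs that array probes may share, which makes its own part in the signal uncertain. Of 8 guanylate-binding genes measured, Gbp2b alone was called. Gbp3 and Gbp7, its nearest neighbours on one side, had differences of -0.37 and -0.34 with unadjusted p of 0.0133 and 0.0239, and neither passed the adjustment. Gbp5 and Gbp11 were at -0.01 and 0.03.

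Other interferon-responsive genes were examined in the light of Gbp2b, through a list of 25 genes of which 21 were measured. With limma, 0 of the 21 were called, against 0.01% of all genes. An unadjusted p under 0.05 was found for 4, all with lower EG values (2.35% of all genes): Oasl2, Cxcl10, Gbp3 and Ifih1. Of the 21 differences, 14 were negative and 7 positive, the highest at 0.32, and over all genes 9443 of 19938 were negative. The median difference of the list was -0.04, against 0.01 over all genes. Oasl2, an oligoadenylate synthetase-like antiviral protein, had levels of 6.23, 6.46, 5.65 and 5.57 in the EG lines and of 6.44, 7.0, 7.04, 6.94 and 7.18 in the ES lines. EG line 2 and ES line 1 were nearly level, and the other lines of each origin lay apart. The difference was -0.89 ± 0.18 (SE; adjusted p = 0.234). Cxcl10, a chemokine that attracts T cells, had levels of 5.13, 5.00, 5.15 and 5.25 against 6.25, 5.34, 6.17, 5.39 and 5.83, with no overlap and a difference of -0.64 ± 0.14 (SE; adjusted p = 0.413). Other genes outside the list, picked after their values were seen, had the same sign without a call: Dtx3l, a ubiquitin ligase, at -0.72, Cd274, the immune checkpoint ligand PD-L1, at -0.48, and H2-Q4, a class I histocompatibility gene, at -0.87. Of 13 measured genes of class I and antigen processing, 0 were called by limma. An unadjusted p under 0.05 was found for 3, all lower (2.35% of all genes), and the median was -0.14.

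The genes that set pluripotency had nearly equal levels. Pou5f1, the Oct4 gene, had a difference of 0.05 with a 95% interval of -0.10 to 0.19, and Sox2, its partner, one of 0.05 with an interval of -0.13 to 0.22. Of 15 core pluripotency genes, 0 were called and 1, Gdf3, had an unadjusted p under 0.05. Over all genes 0.01% were called and 4.91% had such a p, so 0 calls do not set a short list apart. All 15 intervals lay within 2-fold, and the median was 0.05. The germ cell genes held no call either. Of 17 primordial germ cell genes measured, 0 were called, 1 (Alpl) had an unadjusted p under 0.05, all 17 intervals lay within 2-fold, and the median was -0.12. Kitl alone of the 17 did not overlap between the origins, with the EG lines lower (1.27% of all genes). Among 20 measured germline genes that DNA methylation silences in somatic cells, 0 were called, 1 (Sycp3) had an unadjusted p under 0.05, and the median was -0.07. Dazl, one of them and a germ cell RNA-binding protein, had a difference of -0.05 with an interval of -0.65 to 0.56. Dppa3, a germ cell and egg factor that protects against demethylation, had a difference of -0.27 with an interval of -0.79 to 0.26.

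Enzymes of DNA methylation were measured with unequal precision. Dnmt1, which copies methylation at replication, had a difference of -0.02 with a 95% interval of -0.18 to 0.14, and its partner Uhrf1 one of 0.00 with an interval of -0.17 to 0.17. Dnmt3a and Dnmt3b, which set new methylation, had differences of 0.07 and -0.00, but their intervals ran from -0.64 to 0.77 and from -0.57 to 0.56. Dnmt3l, their inactive cofactor, had levels of 11.55, 11.76, 11.01 and 10.89 in the EG lines and of 10.85, 11.10, 10.79, 10.44 and 10.39 in the ES lines. The groups overlapped, through ES line 2, and the difference of 0.88 had an interval of -0.28 to 2.04, which takes in a 2-fold difference. Tet1, which oxidises methylated cytosine, had a difference of 0.17 with an interval of -0.09 to 0.42. Prdm14, which represses the new-methylation enzymes, had a difference of -0.46 with an interval of -0.99 to 0.08.

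**Figure D3:**
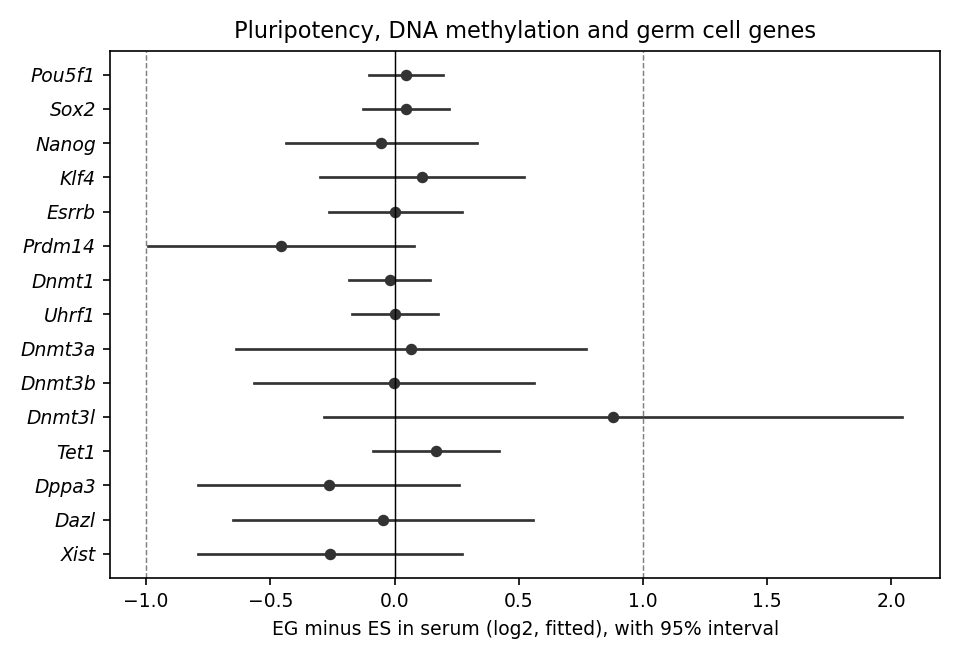
Fitted EG minus ES difference in serum (log2, horizontal axis) with its 95% interval for 15 genes of pluripotency, DNA methylation and germ cells, with dashed lines at a 2-fold change. Every interval holds 0, the intervals of Pou5f1, Sox2, Dnmt1 and Uhrf1 are the narrowest, and that of Dnmt3l alone passes a 2-fold difference.

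The wide intervals for Dnmt3a and Dnmt3b come with a spread among lines that crossed the origins. Dnmt3a was at 7.38 and 7.47 in EG lines 3 and 4 and at 7.32 in ES line 1, and between 7.93 and 8.80 in the other 6 lines. Dnmt3b was at 8.35, 8.09 and 8.28 in those 3 lines and between 8.94 and 9.34 in the others. Fgf15, a growth factor gene active in primed cells, was at 6.09, 6.20 and 6.91 in those 3 lines and between 7.68 and 8.25 in the others. Nanog went the other way, at 12.13, 12.16 and 12.12 against 11.35 to 11.93, as did Esrrb, at 9.95, 10.03 and 9.87 against 9.35 to 9.59. The mean level of 14 naive pluripotency factors was 9.23, 9.36 and 9.31 in the same 3 lines and 8.66 to 8.95 in the others. That of 14 primed epiblast genes was 7.09, 7.24 and 7.39 against 7.80 to 8.0. EG lines 3 and 4 and ES line 1 thus had more of the naive and less of the primed transcripts than the other lines of their own origin. These lines were picked out by these values, and no test is given.

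The same 3 lines stood together on the main axis of variation. The first principal component of the 9 serum arrays carried 32.6% of the variance and placed EG lines 3 and 4 and ES line 1 at 14.5, 20.1 and 16.8, and the other lines between -14.4 and -0.3. The second carried 21.1%, with the EG lines between -12.4 and -4.2 and the ES lines between -7.2 and 22.2, ES line 2 lying among the EG lines. ES lines 4 and 5, both labelled male and batch 2, lay close together. They were at -11.8 and -14.4 on the first component and at 3.2 and 4.8 on the second. Whether these 2 are independent lines was not tested. Over all genes, arrays of 1 origin correlated at 0.988 to 0.998 and arrays of different origin at 0.987 to 0.994. Feeder fibroblast markers also varied: their mean level was 6.61 and 6.90 in EG lines 3 and 4 and 6.81 in ES line 1, and 6.20 to 6.64 in the others. The part of feeder RNA in this split was not tested. By origin the marker levels overlapped, at 6.20 to 6.90 in EG and 6.27 to 6.81 in ES lines. Of 29 measured feeder markers 0 were called, against 0.01% of all genes. An unadjusted p under 0.05 was found for 2, both lower in the EG lines (Fn1 and Dcn), against 2.35% of all genes. The median was -0.06. In such bulk samples fewer cells of a type and less RNA per cell cannot be told apart.

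Imprinted genes held several of the larger differences without a call. Of 38 listed genes 30 were measured, and in limma 0 were called while 8 of 30 had an unadjusted p under 0.05, 4 on each side, against 4.91% of all genes. The median was -0.05. The list was then divided, after the values were seen, by the parental copy that is normally expressed. Of 11 genes expressed from the maternal copy, 10 had a negative difference, against 9443 of all 19938 genes. Some of the 10 were near 0, such as Rian (-0.02) and Commd1 (-0.04). Asb4 (-0.08) was under background in every line, so its sign is not resolved. The median of the 11 was -0.09, and 3 did not overlap between the origins, all lower in EG lines (1.27% of all genes). Of 19 expressed from the paternal copy, 12 had a positive difference, against 10495 of all genes. The median of the 19 was 0.07, and 3 did not overlap, all higher (1.5% of all genes). All 4 genes below an unadjusted p of 0.05 with lower EG levels are maternally expressed, and all 4 with higher EG levels are paternally expressed. As the division followed the values, it is a description and carries no test.

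Grb10, a growth-restraining adaptor of insulin signalling, had levels of 7.10, 6.81, 6.63 and 6.86 in the EG lines and of 7.81, 8.97, 7.56, 8.58 and 8.68 in the ES lines. The groups did not overlap, and the ES lines spread over more than a doubling. The difference was -1.62 ± 0.33 (SE; limma adjusted p = 0.234), and in male samples alone it was -2.49 and was called. The other maternally expressed genes were Phlda2 (-0.79), which restrains placental growth, Cdkn1c (-0.74), a cell cycle inhibitor, and Igf2r (-0.39), the receptor that clears Igf2. Phlda2 and Cdkn1c, which lie close together on chromosome 7, did not overlap between the origins.

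Peg3, a zinc finger gene of maternal behaviour and growth, had levels of 9.52, 9.53, 9.41 and 9.33 in the EG lines and of 8.86, 8.68, 9.36, 8.94 and 9.04 in the ES lines. ES line 3 lay among the EG lines and the other ES lines lay below them, with a difference of 0.71 ± 0.16 (SE; adjusted p = 0.431). Mest, a hydrolase-like gene, had 10.59, 10.79, 10.64 and 10.37 against 10.35, 9.67, 9.97, 9.98 and 9.92. Its groups just missed each other, and the difference was 0.91 ± 0.25 (SE; adjusted p = 0.771). Sgce, of the sarcoglycan family, and Impact, a regulator of translation, had differences of 0.88 and 0.56, with no overlap. Peg10, next to Sgce on chromosome 6, had the largest positive value, 1.33 with a 95% interval of -0.37 to 3.03, and ES line 1 at 12.12 lay among the EG lines at 11.92 to 12.43.

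In 2i some of these differences were of like size and others were not. The 2i differences were 0.53 for Peg3, 0.83 for Mest and 0.50 for Impact, each near its serum value, and none was called there. For Grb10 it was 0.13, and the serum minus 2i difference of -1.76 ± 0.41 (SE) was called by limma (adjusted p = 0.0408). That call ended under 11 of 22 alternatives, among them only the compared groups (adjusted p = 0.0561) and 6 of the 9 fits that left out 1 line (EG lines 2, 3 and 4 and ES lines 2, 4 and 5). For Sgce it was -0.66, and the serum minus 2i difference of 1.54 had an adjusted p of 0.0504.

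**Figure D4:**
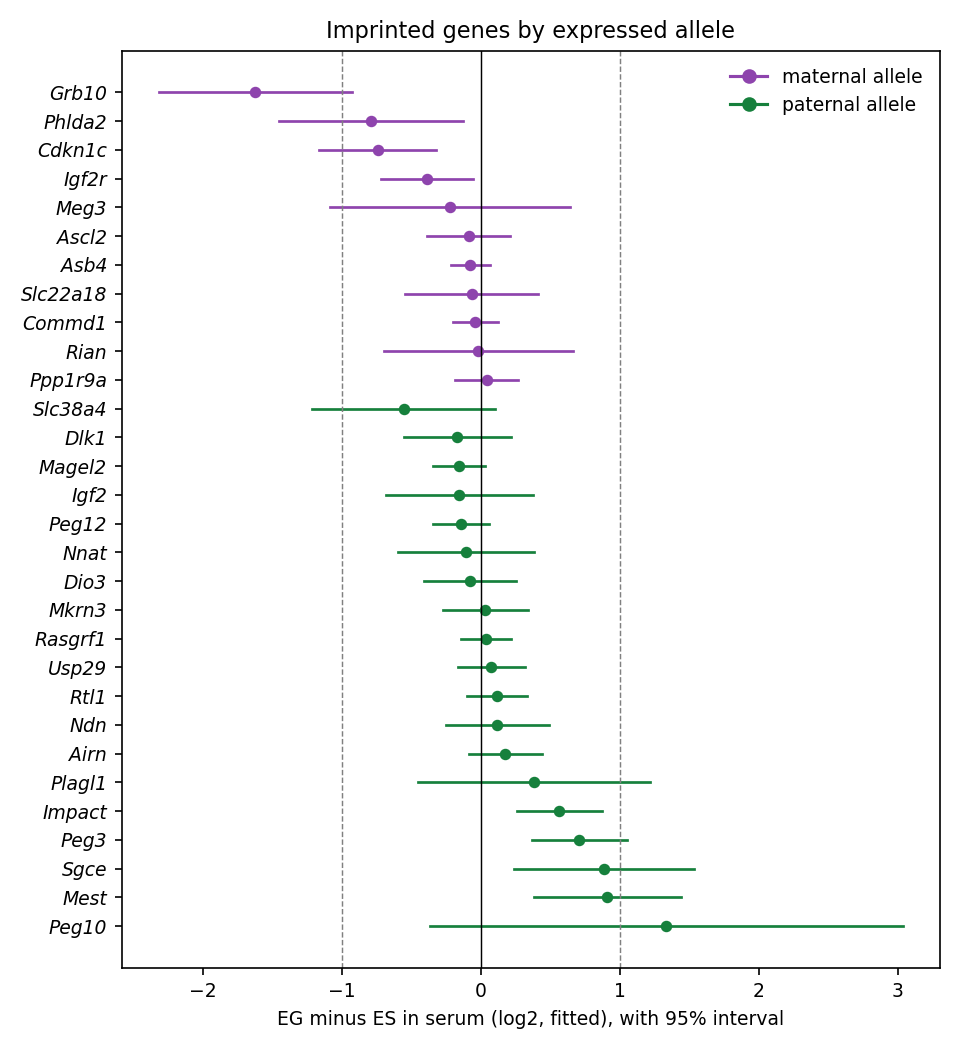
Fitted EG minus ES difference in serum (log2, horizontal axis) with its 95% interval for 30 imprinted genes, coloured by the parental copy normally expressed, with dashed lines at a 2-fold change. The 4 maternally expressed genes from Grb10 to Igf2r have intervals below 0 and the 4 paternally expressed genes from Impact to Mest above it, with 0 genes called.

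Primitive endoderm genes had mostly positive differences without a call. This lineage forms the yolk sac, and some of its cells arise in serum cultures. All 20 listed genes were measured, 0 were called by limma, 7 had an unadjusted p under 0.05, and all 7 had higher EG levels, which 2.56% of all genes did. The median difference was 0.27 against 0.01 over all genes, with 17 of 20 positive, against 10495 of all 19938 genes. Other members of the list lay near 0 or below it. They were Sox17 (0.02) and Afp (0.00), both near background, Sox7 (0.09), Lamb1 (-0.03), Ttr (-0.07) and Foxa2 (-0.13). The endoderm genes described below are among those with higher EG levels. The mean level of the list was 6.63, 6.49, 6.38 and 7.16 in EG lines 1 to 4 and 6.31, 6.34, 6.07, 6.10 and 6.07 in ES lines 1 to 5. EG line 4 stood highest, and EG line 3 was barely above ES line 2.

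EG line 4 was also the highest line for Srgn, Cubn, Gata6, Dab2, Col4a1 and Gata4. Srgn, a proteoglycan core protein, had 7.42, 7.29, 6.46 and 8.40 in the EG lines and 6.27, 6.74, 5.69, 5.16 and 5.17 in the ES lines, with ES line 2 above EG line 3. The difference was 1.28 ± 0.37 (SE; limma adjusted p = 0.83). Cubn, an endocytic receptor, had 6.57, 6.70, 5.43 and 8.21 against 5.21, 5.78, 4.61, 4.67 and 4.59, where ES lines 3, 4 and 5 were under background. Its difference was 1.33 ± 0.39 (SE; adjusted p = 0.847). Gata6, a regulator that drives the lineage, had 6.34, 6.35, 6.10 and 6.91 against 5.96, 5.86, 5.52, 5.29 and 5.38, with no overlap and a difference of 0.60 ± 0.21 (SE; adjusted p = 0.954). Dab2 (0.96), Col4a1 (0.48) and Gata4 (0.39) had the same sign, and each overlapped between the origins. The Dab2 value rests on 1 of its 2 probe sets. The other had means of 4.82 in EG and 4.90 in ES lines, near background, and did not rise in the EG lines. ES lines 1 and 2, which share the EG lines' batch label, lay above ES lines 3, 4 and 5 for Srgn, Cubn and Gata6. Within batch 1 the differences were 0.81 for Srgn, 1.19 for Cubn and 0.59 for Gata6, with 0 of them called. EG line 4 had the highest feeder marker level too, and with that level as a covariate they were 1.29, 1.35 and 0.61, again uncalled.

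Markers of other lineages held no call, which does not set them apart, as 0.01% of all genes were called. An unadjusted p under 0.05 was found for 4.91% of all genes. Among 13 measured genes of primitive streak and mesoderm, 11 of neural ectoderm and 16 of trophoblast, 0 were called in each, with 2, 2 and 1 at an unadjusted p under 0.05 and medians of -0.07, -0.02 and -0.09. Of 37 measured Hox genes, which pattern the body axis, 0 were called, 0 had an unadjusted p under 0.05, and all 37 intervals lay within 2-fold. Of 21 ERK targets, 13 Wnt targets, 10 BMP-SMAD targets, 8 Nodal-SMAD2 targets and 13 LIF-STAT3 targets, 0 were called, with 2, 0, 1, 1 and 0 at an unadjusted p under 0.05. Their medians were 0.10, -0.02, -0.06, 0.01 and -0.01. Lefty1, a Nodal antagonist and target, had a value of 1.07 with a 95% interval of -0.55 to 2.69. In male samples alone it was -0.00, within batch 1 it was 0.37, and without the batch term it was 0.35. The plain difference of the group means was 0.33. Its levels overlapped, at 8.78 to 10.61 in EG and 8.56 to 10.08 in ES lines.

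Lists of cell state and metabolism held no call either, against 0.01% of all genes. An unadjusted p under 0.05 was found for 4.91% of all genes. By limma 0 members were called and 0 had an unadjusted p under 0.05 among 14 naive pluripotency factors, 7 genes of DNA methylation, 10 of DNA demethylation and 9 housekeeping genes, with medians of 0.01, -0.00, 0.07 and 0.01. Of 14 primed epiblast genes 1 (Fgf5, lower) had an unadjusted p under 0.05, of 15 glycolysis genes 1 (lower) and of 16 Polycomb genes 2 (Bmi1 and Kdm2b, higher), with medians of -0.07, -0.01 and 0.06. Of 15 proliferation genes 2 (the cyclins Ccne1 and Ccne2, higher) did, with a median of 0.00. Of 18 cholesterol synthesis genes 2 did (Hmgcs1 and Fdft1, lower), the median was -0.13, and 17 of 18 values were negative. Of 14 p53 targets 1 did (higher), the median was 0.09, and 13 of 14 values were positive. Over all 19938 genes 9443 values were negative and 10495 positive. The 7 measured genes of the 2-cell-like state, a rare state of serum cultures, had a median of -0.24 with 1 at an unadjusted p under 0.05, and their mean level was 6.38 in ES line 3 and 4.69 to 5.37 in the other 8 lines. The 5 Y-linked and 2 X inactivation genes measured held 0 calls and 0 at an unadjusted p under 0.05, with medians of 0.13 and -0.12.

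A few further genes came closest to the threshold and were chosen after their values were seen, as those with an adjusted p under 0.3. Pdgfb, a platelet-derived growth factor chain, had 5.28, 5.20, 5.45 and 5.23 in the EG lines and 5.95, 5.76, 5.89, 5.84 and 6.02 in the ES lines. Pde9a, which breaks down cyclic GMP, had 6.47, 6.56, 6.55 and 6.65 against 6.21, 5.98, 5.82, 6.06 and 5.83. Neither gene overlapped between the origins, and their differences were -0.60 ± 0.12 (SE; limma adjusted p = 0.234) and 0.58 ± 0.12 (SE; adjusted p = 0.253). Wdr6 (-0.47) and Ipp (-0.48) also did not overlap, with adjusted p of 0.198 and 0.231.

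Kcnma1, the large-conductance potassium channel, had the largest fitted value, which rests on 1 of its 2 probe sets. In the probe set used it was at 4.37 to 4.66 in the EG lines, under background, and at 6.63, 5.60, 7.54, 6.63 and 6.81 in the ES lines. The difference was -2.31 ± 0.41 (SE; limma adjusted p = 0.115), and as the EG levels cannot be told from background, neither its size nor its rank is resolved. The other probe set had means of 5.01 in EG and 4.96 in ES lines, and with the mean of both the difference was -1.13. The gene was called without the batch term (-2.12, adjusted p = 0.028) and without ES line 2 (-2.99, adjusted p = 0.00336), the ES line with the lowest level.

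The counts of called origin differences in serum and in 2i depended on the fit. In 2i, with all arrays in the model, 742 genes were called between EG and ES lines (3.72%), 240 higher (1.2%) and 502 lower (2.52%) in the EG lines. The serum and 2i contrasts set different arrays against each other but share the model's batch, sex and spread estimates. Fitted on only the arrays of each comparison, 1 gene was called in serum and 15 in 2i, and in males alone 4 and 7. Within batch 1 the counts were 1 and 201, and without ES line 1 in serum the 2i count was 448. The share of the 2i calls that were higher in EG lines was 32.3%, and 19.8% or 46.5% under other scalings. A count in 1 medium and not in the other is no test of a difference, so the serum minus 2i difference was tested itself. Serum samples were on feeders and 2i samples on laminin, so medium and feeder layer cannot be told apart in it. The feeder marker level was 6.20 to 6.90 in serum and 5.49 to 5.84 in 2i. The serum minus 2i difference was called for 287 genes (1.44%), 174 with a more positive value in serum (0.873%) and 113 with a more negative one (0.567%). Within batch 1 none of the 287 was called, and 1960 genes had an unadjusted p under 0.05 there. Males alone left 33, and leaving out 1 line moved the count to between 110 and 390. The split by direction depended on scaling, with 102 more positive and 104 more negative after a second quantile normalization, and 290 and 98 with arrays centred on medians. With ES samples of equal number taken as 1 line in both media, an alternative chosen after seeing the data, 312 were called.

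The 3 largest in each direction were those of Dpp4, Fndc3c1 and Adgre5, more negative in serum, and of Srgn, Susd2 and Apela, more positive. Of the 22 alternatives, the call ended under 12 for Fndc3c1 and Susd2, 9 for Adgre5, 6 for Srgn, 2 for Dpp4 and 1 for Apela. Leaving out 1 line ended the call in 6 of 9 fits for Fndc3c1, 7 for Susd2, 5 for Adgre5 and 3 for Srgn. Dpp4, a surface peptidase, lay between 6.74 and 7.48 in EG and between 6.87 and 7.42 in ES lines in serum, which overlap fully. In 2i it was at 8.60 to 9.25 in EG and 6.27 to 8.11 in ES lines, and the serum minus 2i difference was -2.25 ± 0.38 (SE; limma adjusted p = 0.00826). Apela, a peptide hormone gene of pluripotent cells, was at 9.78 to 9.98 in EG and 9.01 to 9.59 in ES lines in serum, and at 7.53 to 8.16 against 8.73 to 9.48 in 2i. The order of the origins was thus opposite in the 2 media, and the difference of 1.52 ± 0.25 (SE) had an adjusted p of 0.00776. Susd2, a surface protein, differed by -0.12 in serum and -2.07 in 2i, and Adgre5, an adhesion receptor, by -0.58 and 1.23. Fndc3c1, an X-linked gene, had a serum value of -1.21, and in 2i it was under background in both origins, at 4.64 to 4.84 in EG and 4.04 to 4.81 in ES lines. The 2i difference of 0.67 that enters its serum minus 2i value comes from levels that cannot be resolved, so that value and its place among the largest are uncertain. Srgn was 1.28 in serum and -0.94 in 2i.

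Oasl2 was close to Gbp2b in pattern, but its serum levels overlapped between the origins and its serum difference was not called. It lay between 4.99 and 5.19 in EG and between 4.81 and 5.11 in ES lines in 2i, near background, and its serum minus 2i difference of -1.03 ± 0.22 (SE) was called (limma adjusted p = 0.0283). That call ended under 9 of 22 alternatives, among them 5 of 9 fits that left out 1 line. Dtx3l (-1.21), Pdgfb (-0.85), Wdr6 (-0.52) and Pde9a (0.97) were called as well, and of these Wdr6 lost the call under 5 of 22 alternatives and the others under 1 or 2. Of the named genes called for this difference, none was called within batch 1.

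**Figure D5:**
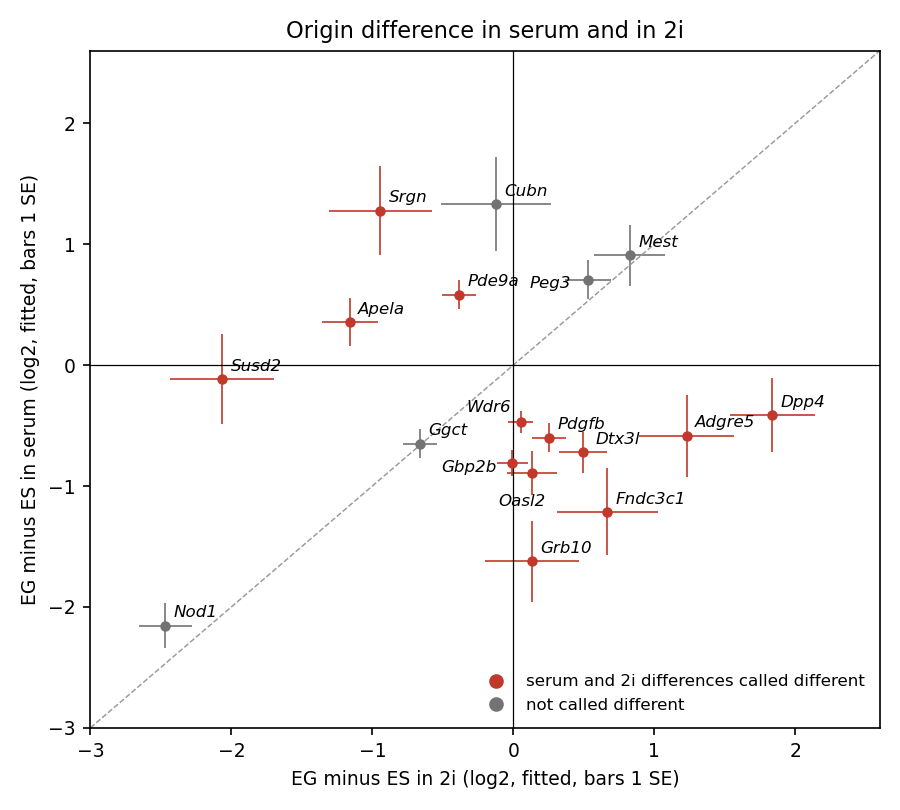
Fitted EG minus ES difference in serum (log2, vertical axis) against that in 2i (log2, horizontal axis), with bars of 1 SE, for named genes, in red where the difference between the media was called. Nod1, Ggct, Peg3 and Mest lie near the dashed line of equal values, and Gbp2b, Oasl2 and Grb10 lie near 0 in 2i. Dpp4, Adgre5, Srgn and Apela have fitted values of opposite sign in the 2 media. In serum the fitted intervals of Dpp4 (-1.05 to 0.22), Adgre5 (-1.29 to 0.13) and Apela (-0.06 to 0.77) hold 0, leaving their signs unresolved. The 2i value of Srgn (-0.94) was not called.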

How the data were processed

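RNA of 22 mouse EG and ES cell samples was hybridised to Affymetrix gene arrays, and 9 of them, the EG and ES lines in serum, form the comparison. The deposited values are log2 RMA levels (background correction, quantile normalization and probe set summary by the authors), and Expression Console, RMA and limma are named per the submitters' processing notes; versions and any batch adjustment are not given in the sources used here. Array medians lay between 5.54 and 5.62, and precision is limited by how many arrays there are. Of 28853 probe sets, 21789 carry 1 gene symbol, 1621 several and 5443 none; the latter 2 kinds are not analysed here. Of those with 1 symbol, 21698 matched the RefSeq gene table of GRCm38.p6. The probe set of each gene that was brightest on average stood for it, giving 19938 genes, and 1851 further ones were left out.

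Differences were fitted with limma 3.58.1 (R 4.3.3; lmFit, eBayes) with terms for group, labelled batch and labelled sex over all 22 arrays, and p-values were adjusted by Benjamini-Hochberg over all genes, two-sided. Intervals are 95% intervals of the moderated fit. The script was tested on simulated data. Named by rule were up to 12 called genes per direction without overlap, up to 2 called genes per list, 15 regulators fixed by name and the 3 largest called serum minus 2i differences per direction, predicted genes passed over; other named genes were chosen after their values were seen. Members and the 30 gene lists were chosen with earlier results of these data known. Alternatives were: no batch term, batch 1 only, no sex term, males only, only the compared groups, a replicate block, other normalization or scaling, a filter on dim genes, the mean of probe sets, another eBayes prior, a feeder term, each serum line left out and, added after seeing the data, ES number as a random block across media.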

Additional observations from a re-analysis of the deposited data

Results flagged for a closer look

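In the 132 groups of lines tested (66 named genes in each origin in serum), 3 values stood apart from the others of their group, and chance alone flags about 1 in 20 groups. All 3 were in ES line 3. Pou5f1 was at 11.69 there and at 11.59 to 11.61 in the other ES lines. Xist, the RNA that coats the inactive X chromosome, was at 6.34 against 4.73 to 5.05. ES line 3 is labelled female, as is ES line 1, where Xist was at 5.05, and ES lines 2, 4 and 5 are labelled male. Apela was at 9.01 in ES line 3 against 9.44 to 9.59 in the other ES lines.

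For 13 named genes the EG minus ES difference in serum was called different from that in 2i by limma, over 4 EG and 5 ES samples in each medium, against 287 of all genes (1.44%). Of these, 6 (Dpp4, Fndc3c1, Adgre5, Srgn, Susd2 and Apela) were named for the size of this very difference, and most others after their values were seen. Within batch 1, 0 of the 13 were called, and in males alone Apela, Pde9a and Dtx3l were. The serum minus 2i difference was more negative for Dpp4 (-2.25), Fndc3c1 (-1.88), Adgre5 (-1.81), Grb10 (-1.76), Dtx3l (-1.21), Oasl2 (-1.03), Pdgfb (-0.85), Gbp2b (-0.81) and Wdr6 (-0.52). It was more positive for Srgn (2.22), Susd2 (1.95), Apela (1.52) and Pde9a (0.97). Each had an adjusted p under 0.05, the highest being 0.042 for Fndc3c1 and the lowest 0.00504 for Pde9a.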

How the results depend on the processing

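The count of 2 called genes in serum became 6 without the batch term, where Nod1 was lost, 1 within batch 1, 4 in male samples alone, 1 with only the compared groups in the fit, 4 with a term for feeder marker level and 1 with a minimum of 2-fold. Leaving out 1 line gave 2 to 4, with 4 without EG line 1. Nod1 was called under 21 of 22 alternatives and Gbp2b under 18 of 22. The 287 called serum minus 2i differences became 0 within batch 1, 33 in males alone, and 110 to 390 with 1 line left out: 157 without EG line 1, 158 without EG line 3, 155 without EG line 4, 110 without ES line 4 and 112 without ES line 5. The 742 called in 2i became 1758 without the batch term, 201 within batch 1, 7 in males alone, 15 with only the compared groups, and 448 to 733 with 1 serum line left out, 448 without ES line 1 and 466 without ES line 4. The cause of these changes was not tested. For the 66 named genes, 1430 serum values under an alternative kept their side of the threshold and their direction if called, 13 gained a call and 5 lost one; for the serum minus 2i difference these counts were 1353, 22 and 73. No called value changed sign. Of the medians of the 30 lists, 24 moved by more than 1 SD of the list level between lines of an origin and 636 did not. Of the 287, 60.6% were more positive in serum, against 74.7% with arrays centred on medians and 49.5% after a second quantile normalization; of the 742, 32.3% were higher in EG lines, against 19.8% and 46.5%. Depth in the sense of reads does not apply to arrays, and 23.7% of genes had a mean under background, where differences cannot be resolved.

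The titles give both origins the numbers 1 to 4, but the numbers did not pair the lines: deviations of same-numbered EG and ES lines correlated at -0.27, 0.22, -0.01 and -0.26, and no EG line correlated best with the ES line of its own number. With the replicate block 2 genes were called in serum, 108 for the serum minus 2i difference and 471 in 2i. Under it the named serum minus 2i calls lost were Fndc3c1 (adjusted p = 0.0864), Grb10 (0.079), Susd2 (0.0705), Adgre5 (0.0651), Wdr6 (0.0645), Srgn (0.0533) and Oasl2 (0.0519). ES samples of equal number in serum and 2i correlated at -0.01 to 0.24 in their deviations, and only number 5 correlated best with its own. With these as a random block, chosen after seeing the data, 2 genes were called in serum, 312 for the difference and 650 in 2i.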
